A study of Mus musculus with 24 samples.

Results

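Collagens and the genes of fibroblast matrix were followed over the day in epidermis of mice with a knockout of the clock activator BMAL1 in keratinocytes. They were taken as every gene of the table whose symbol is Col, a number, the letter a and a number, leaving out Col17a1, together with Sparc, Fn1, Fbln1, Fbln2, Dcn, Lum, Fbn1, Pdgfra, Pdgfrb and Vim. This gave 52 of 17721 genes, of which 42 are collagens and 10 are not. The choice used symbols and no measured value.

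The EpiKO group is 24 RNA-seq libraries of back skin epidermis, freed from the dermis with dispase, of male C57BL/6 mice aged 8 weeks with a K14-Cre-driven Bmal1 knockout, 4 libraries at each of 6 times from zeitgeber time (ZT) 0, lights on, every 4 h in a cycle of 12 h light and 12 h dark. The keratin 14 promoter acts in keratinocytes, so other cells of the preparation keep the gene, and per the design text clocks outside the epidermis were left working. The WT group is epidermis without the knockout. Its libraries are not among the 24 and enter here through the fit that the authors made of both genotypes with dryR. That fit is the single table used, with 1 value per gene and genotype and none per library. Depth is therefore unknown, the spread between animals cannot be computed, no test could be run, and genotype cannot be told apart from any difference in how the EpiKO and WT libraries were made.

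Collagens are proteins of 3 chains wound into a helix. Fibrillar collagens give the dermis its strength, type IV collagen forms the sheet of the basement membrane under the epidermis, anchoring fibrils of type VII tie that sheet to the dermis, and fibril-associated collagens decorate the fibres. Fibroblasts make most of the fibrillar collagen and of the proteoglycans decorin and lumican, and carry the PDGF receptors, whereas keratinocytes make much of their own basement membrane. BMAL1 with its partner CLOCK activates genes through the E-box sequence CACGTG, and secretion of collagen by fibroblasts in culture and in tendon is known to follow the clock.

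The dryR method gives each gene a weight, from 0 to 1, for each of 5 rhythm models (no rhythm, a rhythm in EpiKO only, in WT only, the same in both, or different in each) and for 2 models of the mean (equal or unequal). A gene was assigned where a model weighed at least 0.5, so these are choices of a fit and not p-values. Amplitudes are given as the fold of peak over trough of the fitted curve. Where the equal-mean model was chosen, both genotypes carry 1 fitted mean and the difference of 0 is set by the model. Likewise, 1 shared curve is set by the model of the same rhythm.

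The targeted gene, Arntl, averaged 9.65 in EpiKO and 9.50 in WT (log2) per the authors' deposited table, and its mean was called higher in EpiKO at a weight of 0.719. That level covers all of the gene and not the deleted stretch alone, so the deletion is not checked by it. It had a 4.65-fold rhythm in WT and none in EpiKO, with a weight of 0.882 for a rhythm in WT only per the authors' deposited table.

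The label of fibroblast genes was checked on levels per length, as the log2 level less the log2 of the exon length in kb. The 10 fibroblast markers, 7 of which are among the 52 genes, had a median of 2.94 in EpiKO and 2.64 in WT. The 6 basal keratinocyte markers had a median of 14.8 in EpiKO and 14.9 in WT, so keratinocyte markers stood far above fibroblast markers in both genotypes. Pdgfra stood at 0.86, Pdgfrb at -0.16 and the fibroblast transcription factor Twist2 at -2.59 per kb (1 fitted mean each for both genotypes), under Col1a1 at 5.28 and Col3a1 at 4.44. For Twist2 46.5% of exon bases lie on an annotated gene of the other strand, so its level is uncertain. Most of the highest levels per length belonged to collagens of the epidermal junction. Col7a1 had 10.1 per kb, Col4a6 8.50 and Col18a1 8.48 (1 fitted mean each), and Col16a1 had 8.47 in EpiKO and 9.14 in WT. The transmembrane collagen Col23a1 had 8.70 in EpiKO and 8.25 in WT. Sparc, a collagen-binding matrix protein, had 9.23 in EpiKO and 7.66 in WT. The set is therefore called collagen and matrix genes below, and which cells made each RNA was not tested.

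Mean levels were called unequal for 44.2% of these genes and for 70.1% of all genes. Of the 52 genes 11 were higher in EpiKO (21.2%), against 32.7% of all genes, and 12 were lower (23.1%), against 37.4% of all genes. Counting only differences of at least 0.5 (log2), 15.4% were higher, against 11.7% of all genes, so the order of these shares turns, and 17.3% were lower, against 23.7%. The other 29 had 1 fitted mean. Collagens were lower in 11 and higher in 6 of 42 cases, and the 10 others were higher in 5 and lower in 1. Over the 23 genes with unequal means the median difference was -0.46 (log2, EpiKO minus WT), beside -0.14 over all genes so called. Level bears on these shares. Of the 17 genes at or above the median level of the table, 7.61 (log2), 7 (41.2%) were higher and 5 (29.4%) lower in EpiKO, where 44.4% and 36.7% of all genes were. Of the 35 under it, 4 (11.4%) were higher and 7 lower, where 21.0% and 38.1% of all genes were.

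**Figure D1:**
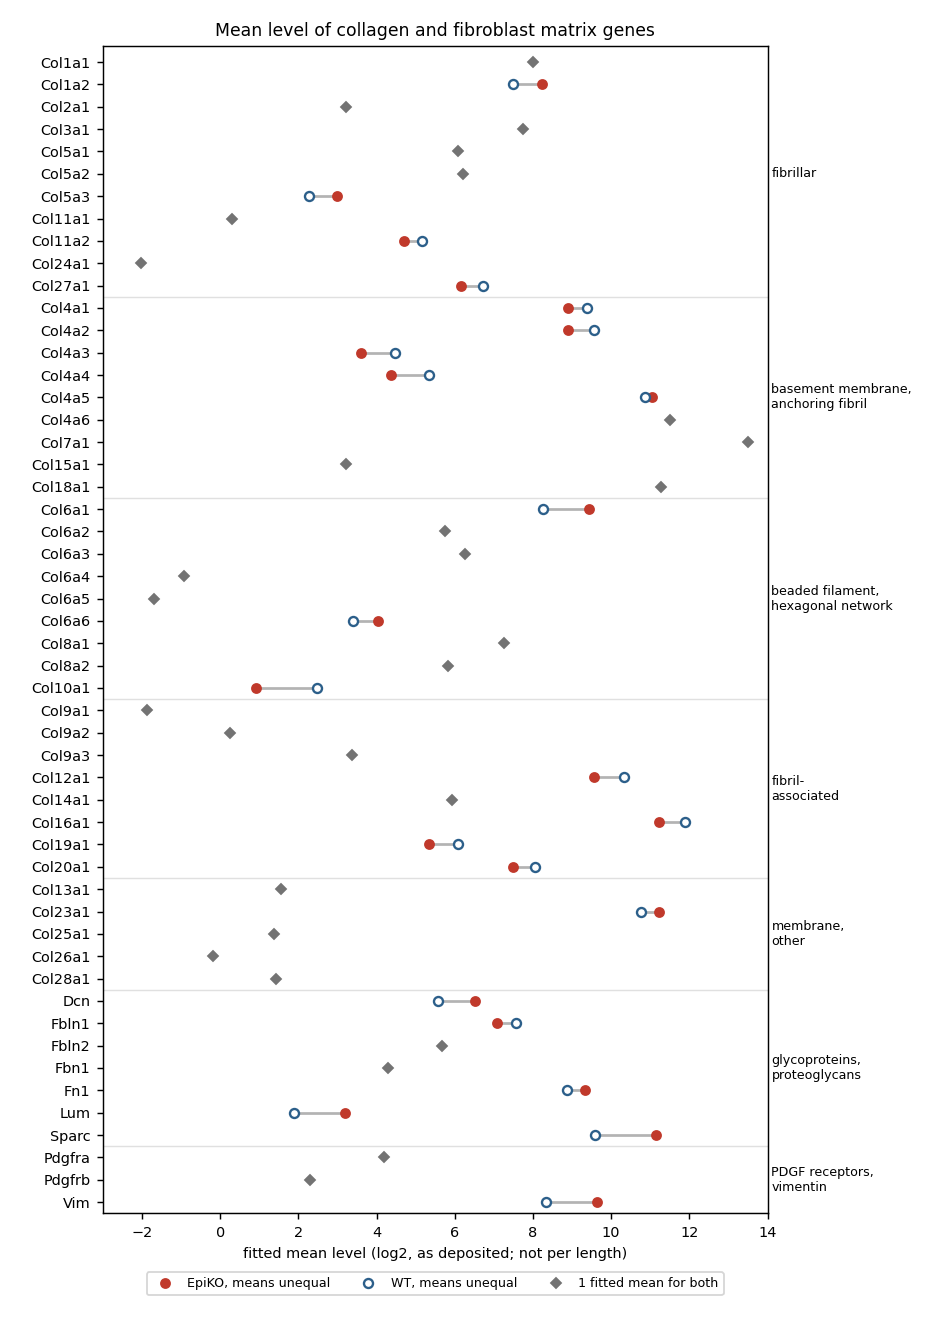
Fitted mean level (log2, not per length) of each of the 52 genes, grouped by the kind of matrix protein. Filled red circles are EpiKO and open blue circles WT where the means were called unequal, and grey diamonds are genes with 1 fitted mean for both. Sparc, Vim, Lum and Col6a1 have the red circle furthest to the right of the blue one, and Col10a1 has it furthest to the left.

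Fibrillar collagens were mostly fitted with 1 mean. Of 11 genes 2 were higher and 2 lower in EpiKO (18.2% each), where 32.7% of all genes were higher and 37.4% lower. Means were called unequal for 36.4% of the 11, beside 70.1% of all genes and 59.1% of those under the median level. Col1a1 (ENSMUSG00000001506; chromosome 11, 94936224 to 94953042, mm10) encodes the chain that makes up most of type I collagen, the main fibre of the dermis, and its 1 fitted mean was 7.99 (log2) per the authors' deposited table. Col1a2, the partner chain (chromosome 6, 4504814 to 4541544), averaged 8.23 in EpiKO and 7.49 in WT per the authors' deposited table. Its level was 1.67-fold higher in EpiKO with a weight of 0.756 for unequal means, which is among the lowest of the 23 calls, and whether it differs from Col1a1 in this was not tested. Col3a1, the type III chain that joins type I in skin fibres, had 1 fitted mean of 7.74 per the authors' deposited table. The regulators of fibre width followed no common pattern. Col5a1 and Col5a2 had 1 fitted mean each, of 6.09 and 6.22, and Col5a3 averaged 2.98 in EpiKO and 2.28 in WT per the authors' deposited table. Lower in EpiKO were Col11a2, with 4.70 in EpiKO and 5.16 in WT, and Col27a1, with 6.15 in EpiKO and 6.72 in WT, per the authors' deposited table. Both are minor fibrillar chains known from cartilage. The cartilage chains Col2a1 and Col11a1 and the minor chain Col24a1 were at low level. They had 1 fitted mean each, of 3.22, 0.29 and -2.02 in that order, per the authors' deposited table.

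Type IV collagen was lower in EpiKO in 4 of its 6 chains, where 37.4% of all genes were lower. Its genes lie in pairs that are read in opposite directions from neighbouring starts, and the lower chains were those of 2 of the 3 pairs. Col4a1 and Col4a2, the chains of nearly every basement membrane (chromosome 8, 11198423 to 11312826 and 11312805 to 11449287, mm10), start 21 bases apart. Col4a1 averaged 8.90 in EpiKO and 9.39 in WT, and Col4a2 averaged 8.91 in EpiKO and 9.55 in WT, per the authors' deposited table. Their levels were 1.41 and 1.57 times as high in WT as in EpiKO. Col4a2 was assigned no rhythm, at a weight of 0.758, and Col4a1 had no class. Col4a3 and Col4a4, best known from the filter of the kidney (chromosome 1), start 72 bases apart. Col4a3 averaged 3.61 in EpiKO and 4.48 in WT, and Col4a4 averaged 4.38 in EpiKO and 5.34 in WT, per the authors' deposited table. These were 1.82 and 1.94 times as high in WT as in EpiKO, and both genes were assigned no rhythm. Col4a5 and Col4a6, whose products form the second network of the skin basement membrane (chromosome X), start 1309 bases apart. Col4a5 averaged 11.03 in EpiKO and 10.86 in WT, the smallest difference called among the 52 genes, and Col4a6 had 1 fitted mean of 11.50, per the authors' deposited table. Both were assigned the same rhythm in the 2 genotypes, with peaks in the light phase. Col4a5 had a 1.34-fold amplitude with a peak at ZT6.61 and a weight of 0.811, and Col4a6 had a 1.41-fold amplitude with a peak at ZT7.78 and a weight of 0.966, per the authors' deposited table. The first 2 pairs were thus alike in that all 4 genes were lower in EpiKO and none was assigned a rhythm, and the Col4a5 and Col4a6 pair differed from them in both calls. Within Col4a3, 5.65% of exon bases lie on an annotated gene of the other strand, and the sources used here do not give the strand setting of the authors' counting.

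The start regions of 2 pairs are shown, in each of which the genes share a call. In the first pair both genes were lower, and in the Col4a5 and Col4a6 pair both had the same rhythm. In the first pair the rhythm classes were not the same, and in the Col4a5 and Col4a6 pair the means were not. The Col4a3 and Col4a4 pair, which shares both calls, is not shown, and no window was matched for Col4a3. Each window runs from 250 bases before to 50 after the RefSeq start of the gene (GRCm38.p6, the assembly of mm10), 5′ to 3′ on the strand of the gene. Capitals mark the GC box GGGCGG and the CCAAT box, on either strand. The windows are chr8:11312777-11313076 (minus strand) for Col4a1, chr8:11312555-11312854 (plus strand) for Col4a2, chrX:141475169-141475468 (plus strand) for Col4a5 and chrX:141474027-141474326 (minus strand) for Col4a6.
Col4a1: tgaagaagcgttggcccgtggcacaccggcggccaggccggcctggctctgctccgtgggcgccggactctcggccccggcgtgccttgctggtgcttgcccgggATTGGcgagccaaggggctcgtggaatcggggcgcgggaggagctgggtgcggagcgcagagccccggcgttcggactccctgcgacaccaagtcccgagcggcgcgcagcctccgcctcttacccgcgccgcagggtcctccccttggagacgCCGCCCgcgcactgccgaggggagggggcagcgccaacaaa
Col4a2: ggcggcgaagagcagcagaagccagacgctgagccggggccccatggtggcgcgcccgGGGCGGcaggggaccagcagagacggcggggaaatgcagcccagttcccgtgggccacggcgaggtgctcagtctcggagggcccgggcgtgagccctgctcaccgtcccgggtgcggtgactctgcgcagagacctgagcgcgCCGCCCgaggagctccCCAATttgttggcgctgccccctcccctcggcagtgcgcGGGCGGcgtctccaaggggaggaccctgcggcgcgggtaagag
Col4a5: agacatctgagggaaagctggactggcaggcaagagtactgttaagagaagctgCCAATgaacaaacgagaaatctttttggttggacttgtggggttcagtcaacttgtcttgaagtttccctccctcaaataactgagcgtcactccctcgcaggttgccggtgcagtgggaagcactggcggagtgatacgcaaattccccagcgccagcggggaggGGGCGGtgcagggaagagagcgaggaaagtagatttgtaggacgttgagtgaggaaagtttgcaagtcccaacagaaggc
Col4a6: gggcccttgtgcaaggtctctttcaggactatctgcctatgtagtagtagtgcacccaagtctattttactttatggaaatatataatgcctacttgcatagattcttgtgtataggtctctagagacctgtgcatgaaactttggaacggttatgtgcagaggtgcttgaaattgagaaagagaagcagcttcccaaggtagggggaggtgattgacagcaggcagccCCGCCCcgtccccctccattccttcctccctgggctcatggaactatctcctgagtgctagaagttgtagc
The Col4a1 and Col4a2 windows share 78 bases, so the CCGCCC near the end of the first is the same site as the last GGGCGG of the second. The Col4a5 and Col4a6 windows do not overlap. The GC content was 74.0% for Col4a1 and 73.7% for Col4a2, against 52.7% for Col4a5 and 48.3% for Col4a6. None of the 4 holds the E-box CACGTG. RefSeq windows were matched for 40 of the 52 genes, 44 windows in all, with a median GC content of 59.8% beside 52.7% over 32851 windows. Searched on both strands, CACGTG was found in 2 of the 44 windows (4.55%), both of Fbln1, and in 7.15% of all windows. GGGCGG was found in 59.1% of the 44 and in 35.7% of all windows, CCAAT in 29.5% and 37.4%, and TATAAA in 11.4% and 13.6%. None of these motifs contains another, and a match describes these letters only.

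The other basement membrane and anchoring fibril collagens had 1 fitted mean each. Col7a1, the chain of the anchoring fibrils (chromosome 9, 108953586 to 108984875), had the highest level of the set, also per kb, with 13.50 (log2) and a weight of 0.576 for no rhythm per the authors' deposited table. Col18a1, a basement membrane proteoglycan from which endostatin is cut, had 11.29, and the related Col15a1 had 3.23, per the authors' deposited table. Both were assigned no rhythm.

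Type VI collagen forms beaded filaments from 3 chains, and all 3 genes were assigned the same rhythm in the 2 genotypes, with peaks late in the dark phase. Col6a1 (chromosome 10, 76708792 to 76726168) averaged 9.44 in EpiKO and 8.26 in WT per the authors' deposited table. It was the collagen with the largest difference upward, 2.27-fold higher in EpiKO. Its neighbour Col6a2 (chromosome 10, 76595762 to 76623630) and Col6a3 had 1 fitted mean each, of 5.74 and 6.26, per the authors' deposited table. Per kb Col6a1 stood above both, at 7.31 in EpiKO and 6.13 in WT beside 2.69 for Col6a2 and 2.68 for Col6a3, and it had the smallest amplitude of the 3, with 1.51-fold for Col6a1, 3.12-fold for Col6a2 and 3.94-fold for Col6a3. Peaks were at ZT21.1, ZT19.5 and ZT19.7, with weights of 0.586, 0.825 and 0.734, in that order of genes per the authors' deposited table. The first weight is close to the limit, and a rhythm in WT only was the next model for Col6a1. Of the later-described chains that can stand in for Col6a3, Col6a6 averaged 4.02 in EpiKO and 3.41 in WT with a weight of 0.622 for unequal means per the authors' deposited table. Col6a4 and Col6a5 lay under 0 (log2) in both genotypes.

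The network collagens differed one from another. Col10a1, known from growing cartilage (chromosome 10, 34389981 to 34397085), averaged 0.90 in EpiKO and 2.47 in WT per the authors' deposited table, a difference of -1.57 (log2) and the largest downward among the 52 genes, at low level. Col8a1 and Col8a2, chains of the type VIII network of endothelia and the cornea, had 1 fitted mean each, of 7.27 and 5.83, per the authors' deposited table. Col8a1 was assigned the same rhythm, 1.64-fold with a peak at ZT2.25 and a weight of 0.918, per the authors' deposited table. Col8a2 was the single gene of the set assigned a rhythm in EpiKO only, 3.52-fold with a peak at ZT23.4, at a weight of 0.544, per the authors' deposited table. Of all genes 4.31% were in that class.

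Fibril-associated collagens were lower in EpiKO in 4 of 8 cases and higher in 0 of 8, where 37.4% of all genes were lower and 32.7% higher. Col16a1, which lies at the junction of dermis and epidermis (chromosome 4, 130047840 to 130099283), averaged 11.22 in EpiKO and 11.89 in WT per the authors' deposited table. It was also the single gene of the set assigned different rhythms, with a weight of 0.782, where 2.65% of all genes were. Its amplitude was 1.37-fold in EpiKO and 1.57-fold in WT, with peaks at ZT5.65 in EpiKO and ZT10.6 in WT, per the authors' deposited table. The peak was thus 4.99 h earlier in EpiKO. Col12a1, a stress-responsive cover of type I fibres (chromosome 9, 79598991 to 79718831), averaged 9.56 in EpiKO and 10.32 in WT per the authors' deposited table. It was assigned a rhythm in WT only, 1.64-fold with a peak at ZT14.9 and a weight of 0.893, per the authors' deposited table. Col19a1, a rare chain found at basement membranes, averaged 5.35 in EpiKO and 6.08 in WT, with the same 3.33-fold rhythm in both and a peak at ZT12.5, per the authors' deposited table. Col20a1 averaged 7.50 in EpiKO and 8.04 in WT and was assigned no rhythm per the authors' deposited table. Col14a1, the other cover of type I fibres, had 1 fitted mean of 5.92 and no assigned rhythm per the authors' deposited table. The type IX chains of cartilage, Col9a1, Col9a2 and Col9a3, had 1 fitted mean each between -1.88 and 3.38 per the authors' deposited table.

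Among the remaining collagens Col23a1, a transmembrane collagen (chromosome 11, 51289920 to 51583918), averaged 11.22 in EpiKO and 10.77 in WT per the authors' deposited table. It was left without a class, with no model above 0.422. The transmembrane collagens Col13a1 and Col25a1 and the minor Col26a1 and Col28a1 had 1 fitted mean each between -0.18 and 1.55 per the authors' deposited table.

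Proteins that are not collagens held the largest differences upward. Sparc (ENSMUSG00000018593; chromosome 11, 55394500 to 55423183) averaged 11.15 in EpiKO and 9.58 in WT per the authors' deposited table, 2.97-fold higher in EpiKO. Its daily curve was assigned the same in both genotypes, 1.29-fold with a peak at ZT11.5 and a weight of 0.818, per the authors' deposited table, so the 2 curves run in parallel. Vim, the intermediate filament of mesenchymal and immune cells (chromosome 2, 13573927 to 13582826), averaged 9.64 in EpiKO and 8.34 in WT per the authors' deposited table, 2.46-fold higher in EpiKO. Dcn and Lum, small proteoglycans that bind collagen fibres, were higher too. Of related proteoglycans outside the set, Fmod, Ogn and Aspn were higher, Prelp was lower and Bgn had 1 fitted mean. Dcn averaged 6.53 in EpiKO and 5.56 in WT, and Lum averaged 3.19 in EpiKO and 1.90 in WT, per the authors' deposited table. These were 1.95-fold and 2.45-fold higher in EpiKO, and neither was assigned a rhythm. Fn1, which encodes the adhesive glycoprotein fibronectin (chromosome 1, 71585520 to 71653200), averaged 9.33 in EpiKO and 8.87 in WT per the authors' deposited table. It had the firmest assignment of a rhythm in WT only in the set, at a weight of 0.964, with a 2.43-fold amplitude and a peak at ZT1.12, per the authors' deposited table.

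Fbln1, a fibulin of basement membranes and elastic fibres, was the exception in direction, with 7.09 in EpiKO and 7.57 in WT and the same 2.12-fold rhythm with a peak at ZT22.4 per the authors' deposited table. Fbln2 had 1 fitted mean of 5.68 and a rhythm in WT only, 3.17-fold with a peak at ZT19.2 and a weight of 0.716, per the authors' deposited table. Fbn1, the main protein of microfibrils, had 1 fitted mean of 4.29 and no class. Its leading model was a rhythm in WT only, at a weight of 0.448, with a 6.26-fold curve, per the authors' deposited table. For Fbn1 20.1% of exon bases lie on an annotated gene of the other strand and 19.7% of 51-base windows recur in another gene, so its level is uncertain. The receptors Pdgfra and Pdgfrb, which mark fibroblasts and mural cells, had 1 fitted mean each, of 4.19 and 2.29, and no rhythm at weights of 0.640 and 0.525 per the authors' deposited table. Of Pdgfra 6.21% of exon bases lie on genes of the other strand.

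Of the 52 genes 18 (34.6%) were assigned a rhythm in at least 1 genotype, beside 32.0% of all genes. The same rhythm in both was assigned to 10 genes (19.2%), against 16.7% of all genes, and a rhythm in WT only to 6 (11.5%), against 8.41%. No rhythm was assigned to 29 (55.8%), against 56.7%, and 5 had no class. These shares lie near those of the table. Beside Fn1, Col12a1 and Fbln2, the WT-only class held Col27a1 (2.94-fold, peak at ZT20.4, weight 0.939), Col2a1 (2.86-fold, ZT20.6, 0.885) and Col5a1 (3.43-fold, ZT19.8, 0.517) per the authors' deposited table. The same-rhythm class also held Col11a2, with a peak-to-trough height of 0.59 (log2), a peak at ZT18.3 and a weight of 0.759, per the authors' deposited table. Col5a1 was the rhythmic gene nearest the limit, and Col4a1 was just outside it, with 0.467 for a 1.56-fold rhythm in WT only that peaked at ZT23.6, per the authors' deposited table. Col11a1 and Col28a1 were the remaining genes without a class.

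**Figure D2:**
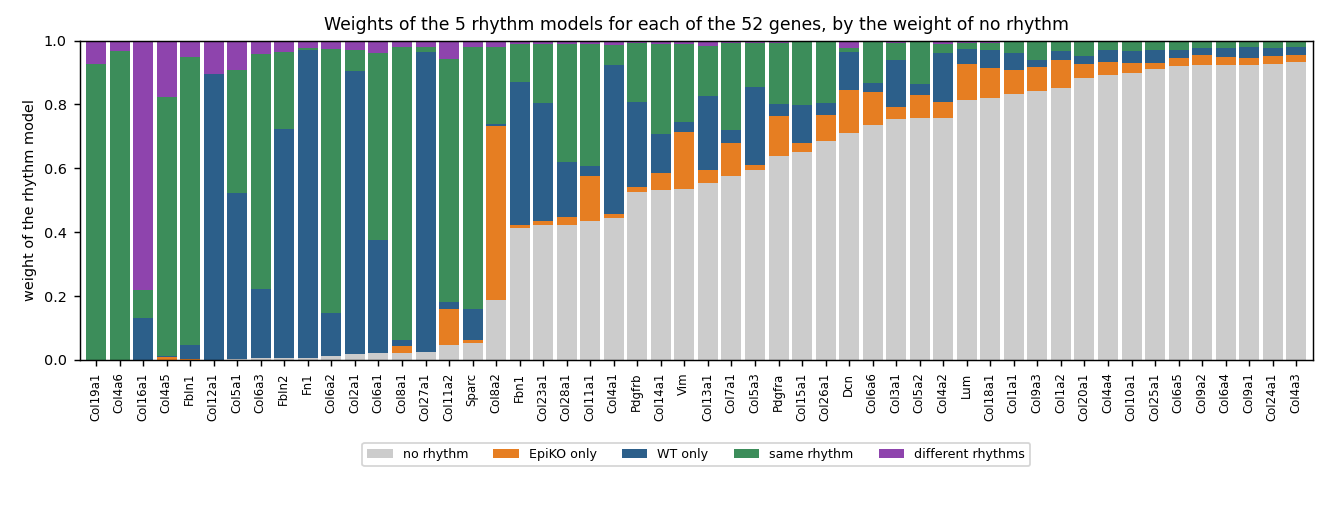
Weights of the 5 rhythm models for each of the 52 genes, as stacked bars that sum to 1, ordered by the weight of no rhythm (grey). Col4a6, Col19a1 and Fbln1 are nearly all green (same rhythm), Fn1, Col27a1 and Col12a1 nearly all blue (WT only), and Col16a1 is mostly purple (different rhythms), while Col5a1 and Col8a2 are mixed.

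The late dark phase held many of the peaks. From ZT18 to ZT24, a window chosen after the values were seen, lay 6 of 12 peaks in EpiKO and 9 of 17 in WT (52.9%), where the shares of all rhythmic genes were 24.8% of 4188 in EpiKO and 28.0% of 4914 in WT. Of the 10 genes with the same rhythm 5 peaked there, and these count in both genotypes through 1 curve. Of the 6 with a rhythm in WT only 4 did. Over the whole dark phase the shares were 58.3% in EpiKO and 64.7% in WT, beside 48.5% in EpiKO and 52.1% in WT for all rhythmic genes. Col4a5, Col4a6, Col16a1, Col8a1 and Sparc, 5 of the 12 genes rhythmic in EpiKO, peaked in the light phase in both genotypes, and Fn1 did so in WT. The other 2 genes with a WT peak outside the window, Col19a1 and Col12a1, peaked early in the dark phase.

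**Figure D3:**
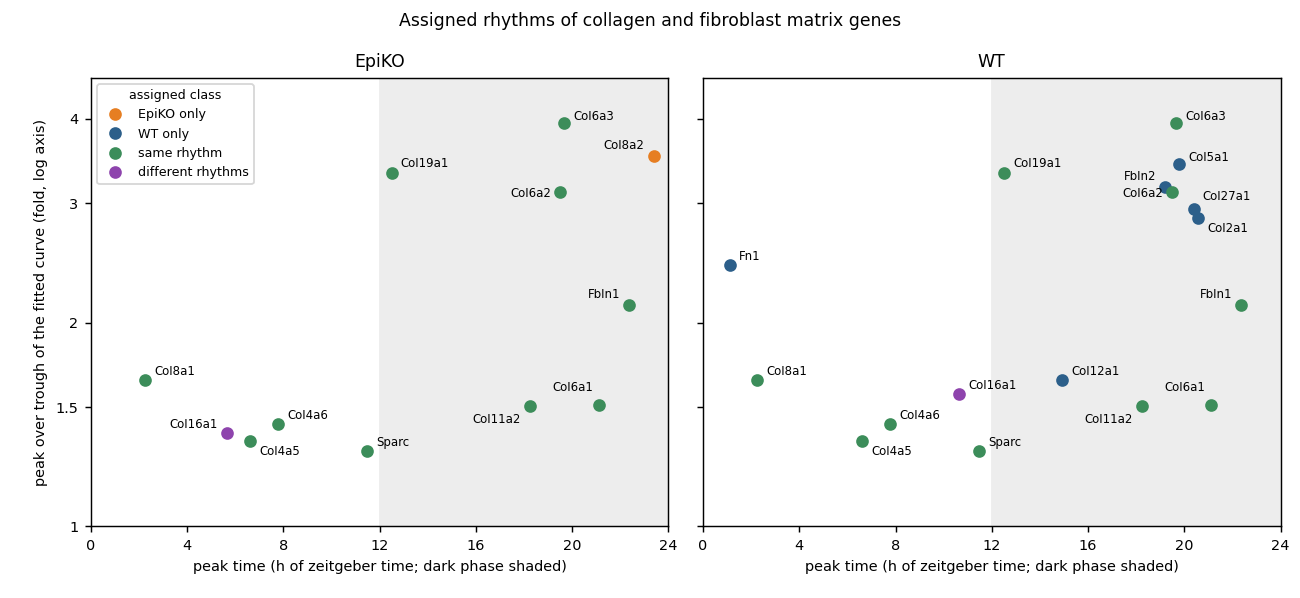
Peak time (h of zeitgeber time, dark phase shaded) against peak over trough of the fitted curve (fold, log axis) for the genes assigned a rhythm, in EpiKO (left, 12 genes) and WT (right, 17 genes), coloured by class. Genes of the same rhythm sit at the same place in both panels, the blue WT-only genes between ZT19 and ZT21 are missing from the EpiKO panel, and Col16a1 lies further to the left in EpiKO.

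Amplitudes covered 1.29-fold to 3.94-fold in both genotypes. The median fold was 1.58 over 12 genes in EpiKO and 2.12 over 17 in WT, beside 1.28 in EpiKO and 1.29 in WT over all rhythmic genes. Over all rhythmic genes the median amplitude was larger under the median level than above it, and most of these genes are under it. Under the median level the medians were 3.12 in EpiKO and 3.03 in WT for the set, and 1.77 in both for all genes. At or above it they were 1.37 in EpiKO and 1.51 in WT for the set, and 1.22 in EpiKO and 1.23 in WT for all genes.

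**Figure D4:**
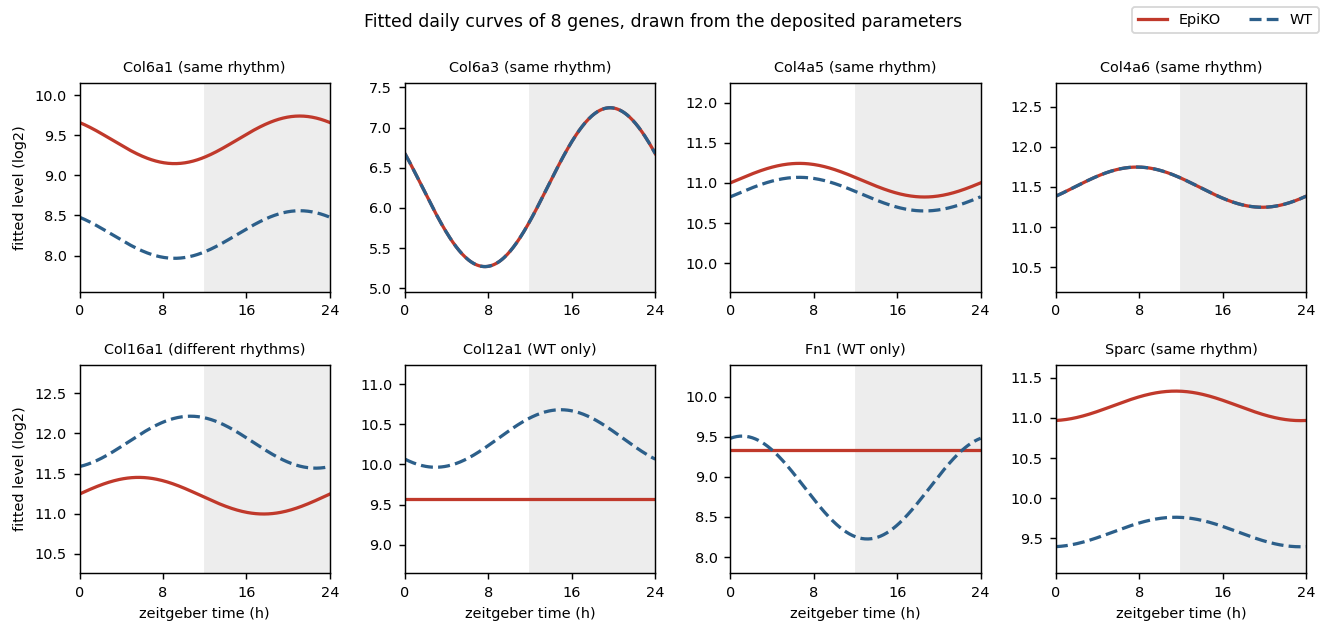
Daily curves (log2 level against zeitgeber time in h, dark phase shaded) of 8 genes, drawn from the deposited mean, amplitude and peak time, EpiKO as a solid red line and WT as a dashed blue line. Sparc and Col6a1 run in parallel at different means, Col6a3 and Col4a6 have 1 curve for both, Fn1 and Col12a1 are flat in EpiKO, and Col16a1 peaks earlier in EpiKO. No points for single libraries can be shown.

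Of 29 measured enzymes and chaperones that process collagen 14 were higher (48.3%) and 10 lower (34.5%) in EpiKO, beside 32.7% and 37.4% of all genes. A rhythm was assigned to 16 of them (55.2%), beside 32.0% of all genes and 45.5% of those at or above the median level. Serpinh1, the collagen-specific chaperone HSP47, averaged 10.51 in EpiKO and 9.80 in WT, with the same 1.59-fold rhythm and a peak at ZT19.3 in both, per the authors' deposited table. P4hb, a subunit of prolyl hydroxylase, averaged 12.61 in EpiKO and 11.71 in WT per the authors' deposited table. The largest differences were downward, in the crosslinking enzyme Loxl2, with 2.66 in EpiKO and 9.36 in WT, and in the prolyl hydroxylase subunit P4ha3, with -1.69 in EpiKO and 3.78 in WT, per the authors' deposited table. The lysyl hydroxylase Plod2 had a rhythm in WT only, 2.42-fold with a peak at ZT19.9, per the authors' deposited table. So did the propeptidase Adamts2, 2.32-fold at ZT19.7, and the enhancer of propeptide removal Pcolce, 2.08-fold at ZT22.8, per the authors' deposited table. Other genes of this list peaked outside ZT18 to ZT24. P4ha2 had the same 1.94-fold rhythm in both with a peak at ZT17.0. Bmp1 and Crtap, also of the same rhythm, peaked at ZT13.0 and ZT17.3. The share of this list that peaked in the window was not counted.

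Of 24 other fibroblast matrix genes 11 were higher (45.8%) and 4 lower (16.7%) in EpiKO, beside 32.7% and 37.4% of all genes. Mfap5, a microfibril protein, averaged 1.40 in EpiKO and -0.11 in WT, and Dpt, which encodes dermatopontin, 4.32 in EpiKO and 3.02 in WT, per the authors' deposited table. The proteoglycan gene Ogn averaged 2.86 in EpiKO and 1.65 in WT per the authors' deposited table. The call of Mfap5 had a weight of 0.590 for unequal means. Lower in EpiKO were Tnxb, Prelp, Tnc and Ltbp1. Tnxb had the highest level of the list, with 12.42 in EpiKO and 13.08 in WT, per the authors' deposited table. The log2 of the summed level of the list was 13.75 in EpiKO and 13.83 in WT. Vcan, a large proteoglycan, had 1 fitted mean of 5.39 and a rhythm in WT only, 4.55-fold with a peak at ZT19.7, per the authors' deposited table. Tnxb also had one in WT only, 2.04-fold at ZT13.2. Prelp and Fbn2 had a rhythm in EpiKO only, 3.03-fold at ZT16.5 and 2.95-fold at ZT8.40. Mfap2 had the same 2.67-fold rhythm in both with a peak at ZT19.1, per the authors' deposited table. Each of these 2 classes held 2 of the 24 genes (8.33%), beside 4.31% (EpiKO only) and 8.41% (WT only) of all genes. Of the 9 genes of this list assigned a rhythm 3 peaked from ZT18 to ZT24. Of 14 fibroblast markers outside the set 7 were higher and 2 lower, with Pi16 at 3.68 in EpiKO and 1.95 in WT, and Prrx1 at 4.52 in EpiKO and 5.74 in WT, per the authors' deposited table.

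Markers of other cells moved between the genotypes as well. The counts that follow stand beside 32.7% of all genes higher and 37.4% lower in EpiKO. Of 7 Langerhans and T cell genes 6 were higher in EpiKO and 0 lower, with a median difference of 1.06 (log2), Cd207 at 7.28 in EpiKO and 5.80 in WT, and the pan-leukocyte gene Ptprc at 8.19 in EpiKO and 7.13 in WT per the authors' deposited table. The log2 of the summed level of the Langerhans markers was 10.6 in EpiKO and 9.49 in WT, and that of the 10 fibroblast markers 11.7 in EpiKO and 10.9 in WT. Thy1, which T cells express too, made up 72.6% of the fibroblast sum in EpiKO and 59.5% in WT, and without it the sum was 9.84 in EpiKO and 9.60 in WT. Vim is expressed by Langerhans cells too. Of 10 endothelial genes 5 were higher and 0 lower. Their median level per kb was -0.96 in EpiKO and -1.04 in WT, so these calls rest on low levels. The weights for unequal means ran from 0.691 for Kdr to 0.991 for Tie1. Of 9 pericyte and smooth muscle genes 2 were higher and 5 lower. Acta2 averaged 6.17 in EpiKO and 8.30 in WT per the authors' deposited table. Rgs5 went the other way, with 2.24 in EpiKO and -1.41 in WT per the authors' deposited table. The 3 defining adipocyte markers had a median of -2.68 per kb in both genotypes. Of the longer list of 8 adipocyte genes 1 was called, Lpl, at 8.03 in EpiKO and 10.27 in WT per the authors' deposited table. Of 7 Schwann cell genes 3 were lower, of 8 skeletal muscle genes 3 were higher and 3 lower, of 10 hair follicle and dermal papilla genes 4 were lower, and of 8 melanocyte genes 2 were lower. Basal keratinocyte genes were higher in 5 and lower in 3 of 12 cases, suprabasal ones higher in 3 and lower in 4 of 8. The part of these cells in the differences of the collagen and matrix genes was not tested, and in bulk RNA fewer cells of a type and less RNA per cell cannot be told apart.

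**Figure D5:**
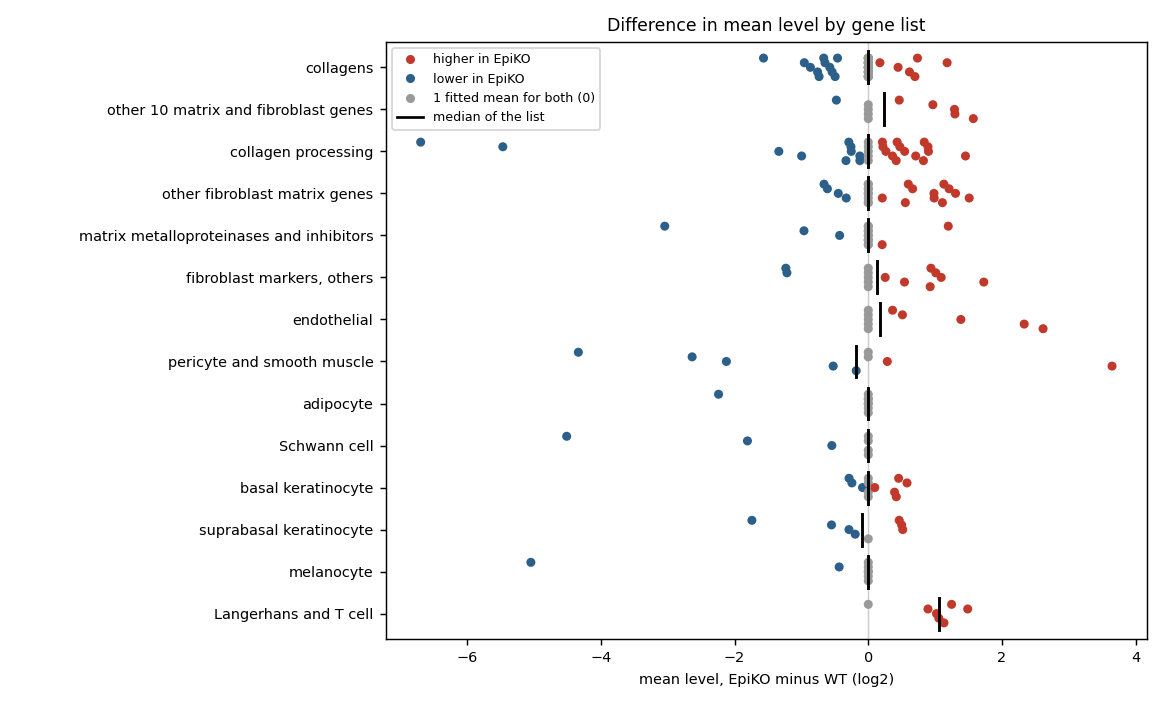
Difference in fitted mean level (log2, EpiKO minus WT) of each gene by list, with higher genes in red, lower genes in blue and genes with 1 fitted mean, set to 0, in grey. The black bar is the median of the list. Collagens centre on 0 with calls both ways, the other 10 genes have 5 of 6 calls to the right, and 6 of 7 Langerhans and T cell genes lie to the right.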

How the data were processed

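Epidermal RNA of 24 EpiKO libraries was sequenced from a stranded polyA kit with reads of 51 bases, per the labels' protocols. The build mm10 and the tools HISAT2 2.2.1, featureCounts 1.6.0, Trimmomatic 0.36 and SAMtools 1.3.1, with edgeR, come from the submitters' processing notes, which give no order or settings here. The 1 table used holds the authors' dryR fit of 17721 genes. Its mean levels are log2 values as deposited, and the sources used here do not say how libraries were scaled. Model weights are a score from 0 to 1 that the authors deposited. Amplitude columns are in other units of the deposited table, a peak-to-trough height in log2, checked against the cosine and sine coefficients within 1e-06 for 5062 EpiKO and 5914 WT rhythms. The side labelled other than WT was taken as EpiKO.

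From it, folds, differences, counts per class and levels per kb of exon were computed with Python 3.11.15, pandas 2.3.3 and NumPy 2.4.6, and counting was tested on simulated tables. Symbols matched 17720 of 17721 identifiers. Positions and exon lengths are from the GENCODE M21 annotation of mm10, promoters from the RefSeq table of GRCm38.p6. The 52 genes and the 21 gene lists were chosen with earlier results of these data known. Named are genes of a rhythmic class, the 6 largest mean differences each way, the 10 highest levels, the 10 genes that are not collagens, the main type I, III, IV and VII chains, the genes beside the weight limit and, of other lists, up to 4 by difference and 4 by amplitude. Other collagens are named to account for all 52. Serpinh1, P4hb, P3h1, Bmp1, Crtap, Tnxb, Tnc, Ltbp1, Bgn, Fmod and Aspn were named after their values were seen. Alternatives were other weight limits, a minimum amplitude, a floor on level, sums of weights, a minimum mean difference and centring. Centring on called genes and leaving out genes with over 5% of shared windows were added after seeing the data.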

Additional observations from a re-analysis of the deposited data

How the results depend on the processing

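No paired analysis was possible because the table holds no values per library, and no replicate could be left out for the same reason. Depth is unknown and there is no spread between animals, so no difference can be set against one. With a weight limit of 0.8, 15 genes (28.8%) had no rhythm instead of 29, beside 35.3% of all genes at that limit. Rhythms in EpiKO only and different rhythms went from 1 each to 0, beside 1.41% and 1.61% of all genes. At that limit 21 genes lost their class, among them Col6a1, Col6a3, Col16a1, Fbln2 and Col5a1. Without genes under the 0.25 quantile of level, 17 of 38 (44.7%) had no rhythm, beside 45.6% of all genes kept. Sums of model weights gave 2.68 for EpiKO only, 9.54 for WT only against 6 called, and 1.86 for different rhythms. The same-rhythm count, 10, was 7 at a limit of 0.8 (13.5%, beside 8.47% of all genes) and 13.1 by sums. With a limit of 0.4 or none, Fbn1 and Col4a1 joined WT only. A limit of 0.8 removed the mean calls of Col1a2 and Col6a6, and a minimum difference of 0.5 (log2) those of Fbln1, Col11a2, Fn1, Col4a5, Col4a1 and Col23a1. No direction was reversed under these alternatives or with differences centred on the median of all genes (0) or of called genes (-0.14).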

Other observations

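Matrix metalloproteinases and their inhibitors, which cut collagen and hold that cutting back, were called different in mean in 5 of 16 cases. This is 31.25%, beside 70.1% of all genes and 59.1% of those under the median level, and 2 were higher and 3 lower in EpiKO. The median level of this list was low, at 3.14 in EpiKO and 3.40 in WT (log2). The gelatinase Mmp9 averaged 6.05 in EpiKO and 4.85 in WT per the authors' deposited table, while the stromelysin Mmp10 averaged -0.09 in EpiKO and 2.96 in WT. The inhibitor Timp3, which binds to matrix, averaged 10.08 in EpiKO and 11.04 in WT per the authors' deposited table. For Timp3 21.3% of exon bases lie on an annotated gene of the other strand, so its level is uncertain. The collagenase gene Mmp13 had a rhythm in WT only, 39.8-fold with a peak at ZT20.2, at a fitted mean of 0.62 (log2) per the authors' deposited table, so the curve rests on a very low level. Mmp3 was assigned different rhythms, 1.84-fold with a peak at ZT3.51 in EpiKO and 4.37-fold with a peak at ZT20.8 in WT, per the authors' deposited table.

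P3h1, a prolyl hydroxylase of collagen, was the gene of the processing list assigned different rhythms, 1.48-fold with a peak at ZT11.0 in EpiKO and 1.65-fold with a peak at ZT20.0 in WT, per the authors' deposited table. Of the 14 fibroblast markers outside the set 3 (21.4%) had a rhythm in EpiKO only and 2 (14.3%) in WT only. The shares of all genes were 4.31% and 8.41%. Crabp1, a retinoic acid binding protein of the dermal papilla, had a rhythm in WT only, 20.5-fold with a peak at ZT20.0, per the authors' deposited table. Cd34 and Prrx1 had one in EpiKO only, 5.85-fold at ZT23.1 and 2.94-fold at ZT18.0. Twist1, a mesenchymal transcription factor, had the same 3.74-fold rhythm in both with a peak at ZT19.6, per the authors' deposited table.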
